A study of Mus musculus with 12 samples.

Results

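The replication-dependent histone genes are the clustered genes that supply H1, H2A, H2B, H3 and H4 to newly made chromatin. They were taken as every gene whose symbol begins with Hist1h, Hist2h, Hist3h or Hist4h, or carries the newer clustered names of the same classes, which gave 70 of the 53647 annotated genes. Of these, 56 had 10 or more counts summed over all 12 libraries: 4 of 6 H1 genes, 14 of 20 H2A genes, 15 of 19 H2B genes, 10 of 12 H3 genes and 13 of 13 H4 genes. Another 6 had 1 to 9 counts and 8 had none. The symbol of Hist3h2bb-ps, which had 1 count, marks it as a pseudogene. Chromosome 13 holds 56 of the 70, chromosome 3 holds 10, chromosome 11 holds 3 and chromosome 6 holds 1.

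The study measured mRNA in wild-type mouse cell lines given uniSTING, a synthetic mimic of the innate immune adaptor STING. There were 6 groups of 2 libraries, each pair numbered as preparations 1 and 2. The labels name 4 groups of cells that received mRNA: DC2.4, a dendritic cell line, with Mock mRNA or uniSTING mRNA, and 4T1, a mammary carcinoma line, with Mock mRNA or uniSTING mRNA. The other 2 groups are DC2.4 cells that spent 24 h with vesicles shed by 4T1 cells, which had themselves received Mock or uniSTING mRNA. The Mock mRNA codes for EGFP, the mRNA was carried either by a transfection reagent or in lipid nanoparticles, and the labels do not say which carrier a library received. They also do not say whether the preparations are separate cultures, so every p-value here measures the spread between preparations, which may be technical.

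The marker genes went against the labels of the cells that received mRNA. The 10 epithelial markers summed to 5100 to 5340 counts per 1000000 library counts (CPM) in the 4 libraries labelled DC2.4 with mRNA and to 0.107 to 6.16 CPM in the other 8. The 11 leukocyte and myeloid markers summed to 145 to 173 CPM in the first and to 5618 to 6251 CPM in the second. Ptprc, which leukocytes carry as CD45, reached at most 1.01 CPM in the libraries labelled DC2.4 with mRNA. All groups are therefore named below by their labels only. Each preparation 1 library also held insulin and surfactant transcripts (Ins1, Ins2 and Sftpc, at 53.5 to 165 CPM summed), which were at 0 in each preparation 2 library, so sums are given within each preparation too. Library totals ran from 14059040 to 25975658 counts.

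Histone proteins package DNA, with H2A, H2B, H3 and H4 forming the nucleosome core and H1 binding the linker DNA. The clustered genes are transcribed mainly in S phase, and most of their mRNAs end in a conserved stem-loop in place of a poly(A) tail. SLBP binds that stem-loop and governs processing, translation and decay, so these mRNAs rise and fall with DNA synthesis. Some clustered genes also give longer polyadenylated forms, above all in cells that leave the cell cycle, and a library made from poly(A) RNA records mostly those. The labels do not say how the mRNA was selected, so the counts cannot be taken as the level of the stem-loop form.

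The stem-loop is shown first because it is what sets these mRNAs apart. It was found in the annotated transcripts of 44 of the 70 genes, in 6 versions. Of the 26 genes without a match, 12 have models that read as coding sequence alone, among them the pseudogene Hist3h2bb-ps, so their 3′ ends could not be searched. In the lines below, capitals mark the paired arms of 6 bases each, the lower-case bases between them are the loop of 4, and 5 bases stand on each side, all 5′ to 3′ in DNA letters from GENCODE release M21.
Hist1h1e: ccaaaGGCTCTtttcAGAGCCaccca
Hist1h1c: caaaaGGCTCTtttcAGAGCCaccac
Hist1h3e: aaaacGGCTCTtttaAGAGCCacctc
Hist2h2ac: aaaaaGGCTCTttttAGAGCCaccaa
Hist2h4: ctaacGGCCCTttttAGGGCCaacca
Hist1h4i: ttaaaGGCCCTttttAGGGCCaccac
Hist1h4n: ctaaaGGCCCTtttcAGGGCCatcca
Hist1h4j: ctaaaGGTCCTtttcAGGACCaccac
The version of Hist1h1e and Hist1h1c was the one most often found, in 26 genes of the H1, H2A, H2B and H3 classes. The Hist1h3e version occurred in 6 genes and the Hist2h2ac version in that gene alone. The H4 genes had arms of their own: 7 carried the Hist1h4n version, 2 the version of Hist2h4 and Hist1h4i, and 2 that of Hist1h4j. Hist2h4 and Hist1h4i thus share every base of arms and loop, and they differed in the values below.

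Upstream sequences are shown for Hist1h1e and Hist2h2ac, which had the smallest p of the H1 and H2A genes that fell in libraries labelled DC2.4 with mRNA, and for Hist1h1c, which did not pass there. They are the 250 bases before the start site in RefSeq on GRCm38.p6, with capitals for the motifs searched. The bases that follow the start site were found in the GENCODE M21 transcripts of Hist1h1e and Hist2h2ac but not in that of Hist1h1c. Hist1h1e lies on the minus strand (chr13:23622559-23622808), Hist2h2ac on the minus strand (chr3:96220881-96221130) and Hist1h1c on the plus strand (chr13:23738557-23738806).
Hist1h1e: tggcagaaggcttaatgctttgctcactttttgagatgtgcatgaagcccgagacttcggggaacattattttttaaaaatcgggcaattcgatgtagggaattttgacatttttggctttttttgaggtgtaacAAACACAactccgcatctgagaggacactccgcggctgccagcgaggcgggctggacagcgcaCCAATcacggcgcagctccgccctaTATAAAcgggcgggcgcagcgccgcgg
Hist2h2ac: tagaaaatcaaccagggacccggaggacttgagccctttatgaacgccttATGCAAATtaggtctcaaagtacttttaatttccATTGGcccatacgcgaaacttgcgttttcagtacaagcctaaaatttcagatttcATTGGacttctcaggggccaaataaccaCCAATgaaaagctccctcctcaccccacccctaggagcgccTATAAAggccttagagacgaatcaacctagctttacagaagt
Hist1h1c: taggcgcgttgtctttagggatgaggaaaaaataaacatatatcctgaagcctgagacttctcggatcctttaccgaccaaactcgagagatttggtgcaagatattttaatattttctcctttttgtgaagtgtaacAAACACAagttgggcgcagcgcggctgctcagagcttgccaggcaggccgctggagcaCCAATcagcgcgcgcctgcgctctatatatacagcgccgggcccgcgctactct
RefSeq promoters were matched for 62 of the 70 genes, and 4 motifs were searched on both strands. CCAAT was present in 51 of the 62 (82.3%), against 33.8% of all 32851 promoters of the same length. The octamer ATTTGCAT was present in 7 of 18 H2A and 6 of 16 H2B promoters and in none of the H1, H3 or H4 promoters, against 1.60% of all promoters. Windows of neighbouring H2A and H2B genes can overlap, as for Hist1h2ae and Hist1h2bg, so a single site can be counted for both genes. AAACACA was present in 5 of 6 H1 promoters and in 9 of the 62, against 6.25% of all. TATAAA was present in 29 of the 62 (46.8%), against 12.4% of all. Hist1h1e and Hist1h1c both hold CCAAT and AAACACA, and TATAAA is in the Hist1h1e window only. These matches are a description of the letters and say nothing of which factor is bound.

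The summed level of the 70 genes, which needs no filter, had both uniSTING libraries outside both control libraries in each of the 3 comparisons, lower in 2 and higher in 1. In libraries labelled DC2.4 with mRNA it was 89.4 and 96 CPM with Mock mRNA and 40.8 and 41 CPM with uniSTING mRNA, a ratio of 0.441. The ratio was 0.456 within preparation 1 and 0.428 within preparation 2. In libraries labelled 4T1 the sum was 214 and 216 CPM with Mock mRNA and 197 and 199 CPM with uniSTING mRNA, a ratio of 0.919. In vesicle libraries it was 181 and 182 CPM after Mock vesicles and 245 and 238 CPM after uniSTING vesicles, a ratio of 1.33. A sum over genes was given no test, since 2 libraries against 2 cannot pass an exact permutation test. In such bulk libraries, fewer cells with these mRNAs and less mRNA per cell cannot be told apart.

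**Figure D1:**
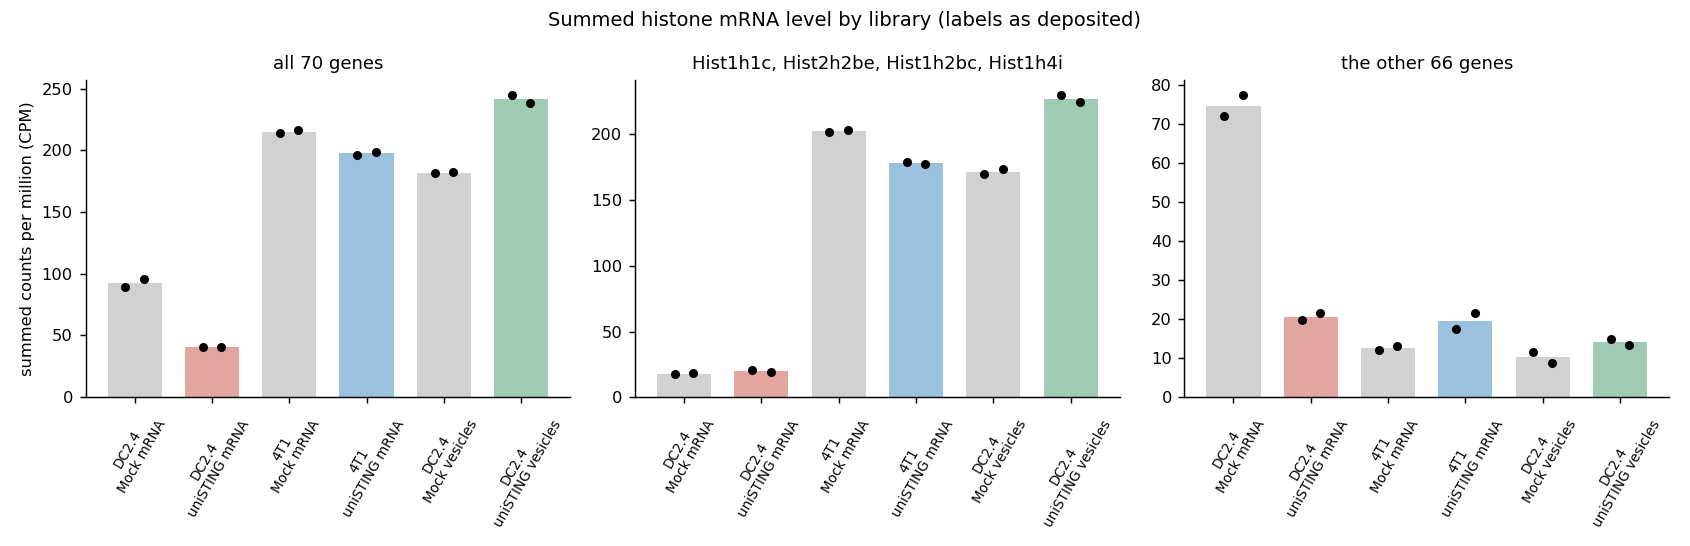
Summed CPM by library for all 70 histone genes, for the 4 with the highest mean CPM and for the other 66, with bars for the group mean and points for the 2 libraries of each group. The other 66 genes sum to 74.7 CPM in the control libraries labelled DC2.4 with mRNA and to 20.6 CPM with uniSTING mRNA, while the 4 sum to 17.9 and 20.3 CPM.

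A set of 4 genes decided much of the sum: Hist1h1c, a linker histone, Hist2h2be and Hist1h2bc, both H2B genes, and Hist1h4i, an H4 gene. They made up 94.1% of all histone counts in the Mock libraries labelled 4T1 and 94.5% after Mock vesicles, but 19.3% in the Mock libraries labelled DC2.4 with mRNA. With uniSTING mRNA in the latter, the 4 made up 49.3%. Summed without them, the remaining 66 genes had a ratio of 0.276 in libraries labelled DC2.4 with mRNA, 1.56 in libraries labelled 4T1 and 1.38 in vesicle libraries. The direction in libraries labelled 4T1 thus turned with these 4 genes, whose own ratio there was 0.879. Per kilobase of exon, the highest mean levels in the Mock libraries labelled DC2.4 with mRNA were those of Hist1h3h (9.25 CPM per kb), Hist1h3e (6.99) and Hist1h1c (6.48), whereas in the Mock libraries labelled 4T1 Hist1h1c (64.6 CPM per kb), Hist2h2be (29.9) and Hist1h2bc (13.5) led.

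In libraries labelled DC2.4 with mRNA, every class had a lower sum after uniSTING mRNA. H3 genes summed to 23.4 and 22 CPM with Mock mRNA and to 5.52 and 5.82 CPM with uniSTING mRNA (ratio 0.250). H2A genes summed to 15.0 and 18.7 CPM and then to 4.67 and 5.03 CPM (ratio 0.288). The ratios of the other classes were nearer 1, at 0.505 for H4, 0.546 for H2B and 0.622 for H1, and it is in these classes that the 4 genes named above lie.

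Gene by gene, 41 of the 70 had enough counts for the test, edgeR's quasi-likelihood test over 14863 genes with p-values adjusted by Benjamini-Hochberg and called below 0.05. In libraries labelled DC2.4 with mRNA, 29 of the 41 were called lower after uniSTING mRNA, each at least 2-fold, where 20.9% of all tested genes were called lower and 1.46% were called lower at least 2-fold. Only Hist1h4i was called higher, where 20.8% of all genes were and 2.19% at least 2-fold, and 11 passed in neither direction. The median log2 fold change of the 41 was -1.89, against 0.00072 for all genes. Within each preparation, on log2(CPM + 0.5), which understates the change of low genes, the median over 39 of them, leaving out those under 10 counts here, was -1.10 in preparation 1 and -1.17 in preparation 2. The filter keeps a gene that is high in a single group, so a gene kept for its Mock level could more readily be called lower than higher. With 1 CPM in 4 libraries as the filter, 5 of 11 tested genes were lower. DESeq2 gave an adjusted p for 22 genes and called 12 lower. The count was 18 without Mock preparation 2 and 17 without uniSTING preparation 2. Without any filter, 44 of the 56 genes with 10 or more counts had both uniSTING libraries below both Mock libraries, against 31.5% of all genes with as many counts, and 6 had both above, against 30% of all genes.

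The H3 genes were led by Hist1h3e (chr13:23745708-23746543, GRCm39, minus strand). It stood at 6.06 and 5.63 CPM with Mock mRNA and 0.743 and 0.359 CPM with uniSTING mRNA, a log2 fold change of -3.41 ± 0.42 (SE, edgeR adjusted p = 9.2e-05). Hist1h3h, at 3.66 and 3.95 CPM with Mock mRNA, was at 0.955 and 0.718 CPM with uniSTING mRNA (log2 fold change -2.17 ± 0.45). Hist1h3c, the H3 gene with the highest mean over all 12 libraries, was at 3.77 and 3.45 CPM and then at 1.17 and 1.40 CPM (log2 fold change -1.46 ± 0.32). No uniSTING library overlapped a Mock library for any of these. Hist1h3a fell as well (log2 fold change -1.87, adjusted p = 0.015), a call lost without Mock preparation 1 (0.111) and without uniSTING preparation 1 (0.137). In all, 8 of 10 tested H3 genes fell, and Hist1h3f (log2 fold change -1.75, adjusted p = 0.058) and Hist2h3c2, with 1 count in each group, did not pass. This count and those of the other classes below stand beside 20.9% of all tested genes called lower.

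Among H4 genes, Hist2h4 (chr3:96168998-96170627, minus strand) had the smallest p of all 41. It had 40 and 48 counts with Mock mRNA and 6 and 7 with uniSTING mRNA, which is 2.29 and 2.18 CPM against 0.318 and 0.279 CPM, a log2 fold change of -2.87 ± 0.32 (edgeR adjusted p = 6.1e-06). Hist1h4n was at 1.66 and 1.13 CPM with Mock mRNA and 0.531 and 0.359 CPM with uniSTING mRNA (log2 fold change -1.63, adjusted p = 0.013). That call of Hist1h4n was lost with DESeq2 (0.0783), without Mock preparation 1 (0.113) and without uniSTING preparation 2 (0.126), all adjusted p-values. Hist1h4i moved the other way, from 1.94 and 1.86 CPM to 2.60 and 2.91 CPM, a log2 fold change of 0.56 ± 0.19 with an edgeR adjusted p of 0.029. That call was lost with DESeq2 (adjusted p = 0.13), with limma-voom (0.083) and without Mock preparation 1 (0.0783), Mock preparation 2 (0.141) or uniSTING preparation 2 (0.169). Of 9 tested H4 genes 5 fell, and Hist4h4, Hist1h4j and Hist1h4k did not pass, with log2 fold changes of -1.22, -1.13 and -0.41.

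The H2A genes Hist2h2ac and Hist1h2ak fell, with log2 fold changes of -3.52 and -2.79. Hist2h2ac (chr3:96127677-96128196, minus strand) had 37 and 61 counts with Mock mRNA and 4 and 5 with uniSTING mRNA, or 2.11 and 2.77 CPM against 0.212 and 0.199 CPM (edgeR adjusted p = 0.00016). Hist1h2ak was at 1.71 and 2.4 CPM and then at 0.159 and 0.399 CPM (adjusted p = 0.00087). Hist1h2ab, at 2.00 and 2.13 CPM with Mock mRNA, was at 0.584 and 0.558 CPM with uniSTING mRNA (log2 fold change -1.83 ± 0.37). Of 9 tested H2A genes 7 fell. Hist3h2a, which overlaps Trim17 on the same strand and is the H2A gene with the highest mean over 12 libraries, was at 0.286 and 0.454 CPM and then at 0.690 and 0.479 CPM and did not pass (adjusted p = 0.31).

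H2B genes fell in part. Of 9 tested, 6 fell, from Hist1h2bh at a log2 fold change of -2.42 to Hist1h2bn, which had 10 and 8 counts with Mock mRNA and 0 in both uniSTING libraries, at least 6.66-fold lower against a floor of 3 counts over the group. Hist1h2bl had 11 and 20 counts with Mock mRNA and 2 and 0 with uniSTING mRNA, 17.2-fold lower with a 95% counting interval of 4.38 to 148. Its call was lost without Mock preparation 2 (adjusted p = 0.055) and without uniSTING preparation 2 (0.0768). Hist2h2be, by contrast, was at 3.03 and 2.81 CPM with Mock mRNA and 2.87 and 2.47 CPM with uniSTING mRNA, a log2 fold change of -0.12 ± 0.18 (edgeR adjusted p = 0.66). Hist1h2bc was at 3.26 and 2.77 CPM and then at 3.61 and 3.75 CPM (log2 fold change 0.32 ± 0.19, adjusted p = 0.20).

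Linker histone genes split in the same comparison. Hist1h1e (chr13:23804612-23806541, minus strand), at 7.54 and 8.30 CPM with Mock mRNA and 2.12 and 2.91 CPM with uniSTING mRNA, fell by 1.63 ± 0.30 on the log2 scale. Its annotated exons overlap Hist1h2be on the same strand, so counts of the shared part are uncertain. Hist1h1d was at 3.31 and 4.36 CPM and then at 0.849 and 0.678 CPM (log2 fold change -2.31 ± 0.41, edgeR adjusted p = 0.0012). Hist1h1b fell too (log2 fold change -1.55). Hist1h1c, the most abundant of all 70, was at 9.20 and 11 CPM with Mock mRNA and 11.9 and 10.4 CPM with uniSTING mRNA, with overlapping groups and a log2 fold change of 0.14 ± 0.11 (adjusted p = 0.36).

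**Figure D2:**
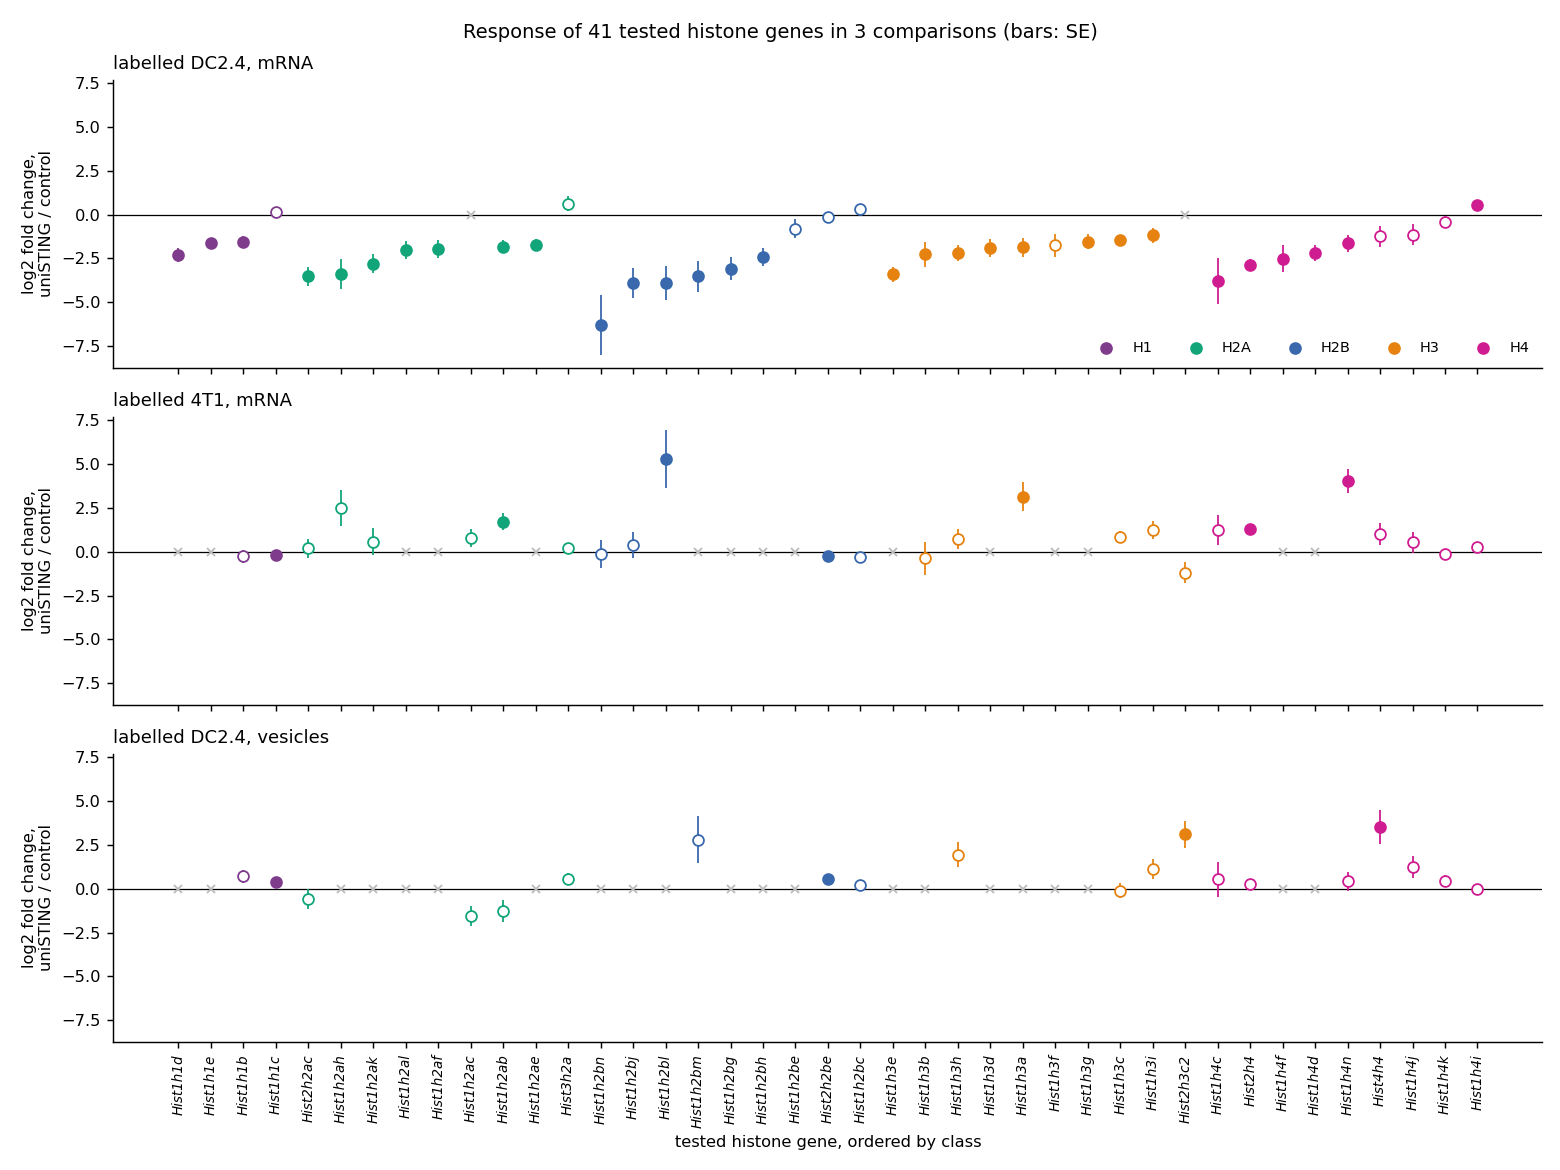
Log2 fold change of uniSTING over control for the 41 tested histone genes, coloured by class, with SE as bars, in libraries labelled DC2.4 with mRNA, libraries labelled 4T1 and vesicle libraries. Filled points passed the threshold, open points did not, crosses at 0 mark genes with under 10 counts in the 4 libraries compared, and fitted values of genes with a group at 0 (such as Hist1h2bn and Hist1h2bl) are no bound; 29 filled points lie below 0 in the upper panel.

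In libraries labelled 4T1, 5 scarce histone genes rose and 2 abundant ones fell. Of the 41 tested genes, 26 had 10 or more counts in these 4 libraries. The count of 5 stands beside 12.6% of all tested genes called higher and that of 2 beside 15.7% called lower. Over the 41, the share called was thus no larger than that of all genes in either direction. The 5 and the 2 all lay among the 26, which alone were not set against all genes. The median log2 fold change of the 41 was 0.20, against -0.0060 for all genes, with 10 of the 41 at 0 counts in these libraries. All 5 were at least 2-fold higher (1.11% of all genes) and neither of the 2 was 2-fold lower (0.7% of all genes). Without a filter, 17 of 56 genes had both uniSTING libraries above both Mock libraries (31% of all genes) and 6 had both below (26.7%). The 5 were Hist2h4 and Hist1h4n (H4), Hist1h3a (H3), Hist1h2ab (H2A) and Hist1h2bl (H2B). The class sums had ratios of 1.48 for H2A, 1.55 for H3 and 1.47 for H4, the last with Hist1h4i included, against 0.885 for H1 and 0.851 for H2B.

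Hist2h4 had 26 and 34 counts with Mock mRNA and 57 and 105 with uniSTING mRNA in libraries labelled 4T1, or 1.45 and 1.35 CPM against 2.90 and 4.04 CPM, a log2 fold change of 1.29 ± 0.25 (edgeR adjusted p = 0.0015). Hist1h4n had 1 count in each Mock library and 11 and 30 counts with uniSTING mRNA, 19.4-fold higher with a 95% counting interval of 5.03 to 165 (adjusted p = 0.00064). These 2 calls were kept on leaving out each library in turn. The remaining 3 rested on few counts. Hist1h2ab had 3 and 4 counts and then 13 and 12, and its adjusted p rose to 0.0725 without Mock preparation 1, 0.112 without Mock preparation 2 and 0.115 without uniSTING preparation 1. Hist1h3a had 0 and 2 counts and then 10 and 11, 9.92-fold higher (2.42 to 87.3), and its call was lost without Mock preparation 1 (0.0794) and without uniSTING preparation 1 (0.0546). Hist1h2bl had 0 counts in both Mock libraries and 7 and 4 with uniSTING mRNA, at least 3.46-fold higher. Its call (adjusted p = 0.033) was lost without either Mock library (0.106 and 0.158), without uniSTING preparation 1 (0.143) and without either Mock library labelled DC2.4 with mRNA (0.0501 and 0.0529). DESeq2 called 1 gene higher in this comparison and the test on the 4 libraries alone called 2. Leaving out 1 library gave 2 without Mock preparation 1 or uniSTING preparation 1 and 3 without Mock preparation 2.

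The genes that fell in libraries labelled 4T1 were Hist2h2be and Hist1h1c, both by little. Hist2h2be was at 78.6 and 78.0 CPM with Mock mRNA and 62.9 and 69.2 CPM with uniSTING mRNA (log2 fold change -0.27 ± 0.05, edgeR adjusted p = 0.0015). Hist1h1c had 1763 and 2597 counts with Mock mRNA and 1835 and 2217 with uniSTING mRNA, a mean of 101 ± 3.1 CPM against 89.4 ± 5.7 CPM (SD, n = 2, log2 fold change -0.21 ± 0.05, adjusted p = 0.0063), and this call was lost without Mock preparation 2 (0.0809) and without uniSTING preparation 2 (0.101). Hist1h2bc, at 16.1 and 15.2 CPM and then at 12.7 and 13.5 CPM, did not pass (adjusted p = 0.12), nor did Hist1h4i, at 8.67 and 7.02 CPM and then at 10.0 and 9.24 CPM (adjusted p = 0.17).

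After vesicles from uniSTING-treated cells, Hist2h2be and Hist1h1c, both among the 4 most abundant genes, rose, and the other two, Hist1h2bc and Hist1h4i, did not pass. Of the 41 tested genes, 20 had 10 or more counts in the 4 vesicle libraries, 12 had none, and the median log2 fold change of the 41 was 0. Of the 41, 4 were called higher, a share near the 7.96% of all tested genes called higher. None was called lower by edgeR, DESeq2 or limma-voom, where 8.14% of all tested genes were lower by edgeR, and 2 were lower at an unadjusted p under 0.05. At least 2-fold changes were called in 2 of the 4, where 0.632% of all genes rose and 0.565% fell by as much. Without a filter, 13 of 56 genes had both uniSTING libraries above both Mock libraries (24.8% of all genes) and 8 had both below (26.6%). Hist2h2be was at 44.2 and 41.1 CPM after Mock vesicles and 64.8 and 61.8 CPM after uniSTING vesicles (log2 fold change 0.57 ± 0.06, edgeR adjusted p = 3.1e-05). Hist1h1c was at 107 and 108 CPM and then at 140 and 139 CPM (log2 fold change 0.38 ± 0.05, adjusted p = 0.00019). Both groups stood apart from their controls in these genes, and both calls were kept by DESeq2.

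The other 2 were scarce. Hist2h3c2, an H3 gene, had 2 and 1 counts after Mock vesicles and 15 and 15 after uniSTING vesicles, 9.06-fold higher (95% counting interval 2.82 to 46.4), and its call (adjusted p = 0.014) was lost without Mock preparation 2 (0.143) and without uniSTING preparation 1 (0.0758). Hist4h4, an H4 gene, had 0 and 1 counts and then 7 and 8, 13.6-fold higher (2.09 to 572). Its call (0.025) was lost on leaving out any of the 4 vesicle libraries, with adjusted p-values of 0.0672 to 0.139. Hist1h2bc, at 13.4 and 18.3 CPM and then at 19.8 and 17.3 CPM, and Hist1h4i, at 5.26 and 6.26 CPM and then at 5.29 and 6.08 CPM, had overlapping groups. Hist2h4, at 2.06 and 1.66 CPM and then at 2.21 and 2.26 CPM, did not pass (adjusted p = 0.53). Hist1h3h and Hist1h2ac fell short of the threshold, at log2 fold changes of 1.94 (adjusted p = 0.088) and -1.55 (0.087). Hist1h3h had 4 and 1 counts after Mock vesicles and 4 and 19 after uniSTING vesicles, with a rise in preparation 2 only.

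The responses differed between the comparisons when the difference itself was tested, and the comparisons share no control library. Between libraries labelled DC2.4 with mRNA and libraries labelled 4T1, 15 of 41 genes had a more negative response in the former, where 15.1% of all genes did, and 1 had a more positive one, Hist1h1c, where 16% did. Of the 41, 26 had 10 or more counts in the libraries labelled 4T1 and 10 had none. For those 10 no response could be measured there, so their difference rests on the libraries labelled DC2.4 with mRNA. The difference with the smallest p was that of Hist2h4, at -4.16 ± 0.41 on the log2 scale (edgeR adjusted p = 3.5e-06), followed by Hist1h4n (adjusted p = 0.00015), which had 1 count in each Mock library labelled 4T1, and by Hist1h2ab at -3.53. Hist1h3c, the most abundant H3 gene, was at -2.32. Against the vesicle libraries, 11 genes had a more negative response in libraries labelled DC2.4 with mRNA (15.3% of all genes), among them Hist1h3h at -4.11 and Hist2h4 at -3.14. The value of Hist1h3h rests on few vesicle counts, 4 and 1 after Mock and 4 and 19 after uniSTING vesicles, with overlapping groups. No gene had a more positive response, with 1 at an unadjusted p under 0.05, and none by DESeq2 or limma-voom. Between libraries labelled 4T1 and vesicle libraries, 6 genes were more positive in the former (13% of all genes) and 3 more negative (15.0%), the latter being Hist2h2be at -0.84, Hist1h1c at -0.59 and Hist2h3c2 at -4.30. By DESeq2 the counts of 15, 11 and 6 were 6, 5 and 0. Without uniSTING preparation 2 of the libraries labelled 4T1 the 15 became 9, and without uniSTING preparation 2 of those labelled DC2.4 with mRNA the 11 became 7. The 6 became 3 without Mock preparation 2 of the libraries labelled 4T1 or without preparation 1 of the Mock vesicles, and 2 without preparation 2 of the uniSTING vesicles. The call of Hist1h1c was lost with limma-voom and on leaving out any of 4 libraries.

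The libraries labelled DC2.4 with mRNA and those labelled 4T1 differed in most of the tested genes already in the Mock groups. Between the Mock libraries labelled 4T1 and those labelled DC2.4 with mRNA, 30 of 41 genes were lower in the former, where 42.4% of all genes were, and 7 were higher, where 40.5% were. The filter keeps a gene that is high in a single group. Genes near 0 outside the libraries labelled DC2.4 with mRNA, such as the 13 tested genes of the block below, could therefore only be lower here. With 1 CPM in 4 libraries as the filter, 5 of 11 tested genes were lower. Hist2h2be was at 78.6 and 78.0 CPM in the Mock libraries labelled 4T1 and 3.03 and 2.81 CPM in those labelled DC2.4 with mRNA, 25.5-fold higher. Hist1h1c was 9.39-fold, Hist1h2bc 4.94-fold and Hist1h4i 3.89-fold higher, and Hist3h2a, Hist1h2ac and Hist2h3c2 were the other 3. Between the 2 leukocyte-marker controls, Mock vesicles against the Mock libraries labelled 4T1, 5 genes were lower (27.6% of all genes), including Hist2h2be at a log2 difference of -0.88, and 1 was higher (26.1%), Hist1h4n at 2.94, a call lost without 4T1 Mock preparation 2.

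A block of neighbouring genes stood out in the control difference, and it was singled out after its values were seen. The rule took the longest run of chromosome 13 histone genes with at most 2 counts in each library not labelled DC2.4 with mRNA. The 16 adjoining histone genes from Hist1h4h to Hist1h1e (chr13:23715220-23806541, GRCm39, 91.3 kb) held 1875 counts in the 4 libraries labelled DC2.4 with mRNA. In the other 8 libraries they held 12 counts in all, a low total that follows largely from that rule. There, 10 of the 16 were at 0 in all 8 libraries: Hist1h2af, Hist1h2bh, Hist1h3f, Hist1h4f, Hist1h1d, Hist1h3e, Hist1h2ae, Hist1h2ad, Hist1h3d and Hist1h4d. The block holds all classes, among them the linker genes Hist1h1d (187 counts in the 4 libraries) and Hist1h1e (428), and the H3 gene Hist1h3e (253).

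Some genes on each side of the block were counted in all groups. Hist1h2ac, the next histone gene after it, had 5 counts in the 4 libraries and 83 in the other 8, Hist1h2bc had 280 and 2464, and the iron regulator Hfe had 530 and 2774. Before the block, Abt1 had 1949 counts in the 4 libraries and 1685 in the 8. Between Abt1 and the block, C230035I16Rik (37 and 78 counts) and Gm46404 (43 and 58) were counted in both sets. Nearer the block, the butyrophilin genes Btn1a1 (78 and 7) and Btn2a2 (23 and 0) and the adjoining Gm11335 (9 and 0) were scarce in the 8, as the block was. Outside the block, the H2A gene Hist1h2al was the single further histone gene at 0 in all 8 and counted in the 4. Within libraries labelled DC2.4 with mRNA, 11 of 13 tested genes of the block fell (median log2 fold change -1.94), and 18 of 28 outside it fell with 1 higher (median -1.85). Of all tested genes, 20.9% were called lower and 20.8% higher there. The 13 passed the filter only through these libraries, where they were high. The cause of the block was not tested.

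**Figure D3:**
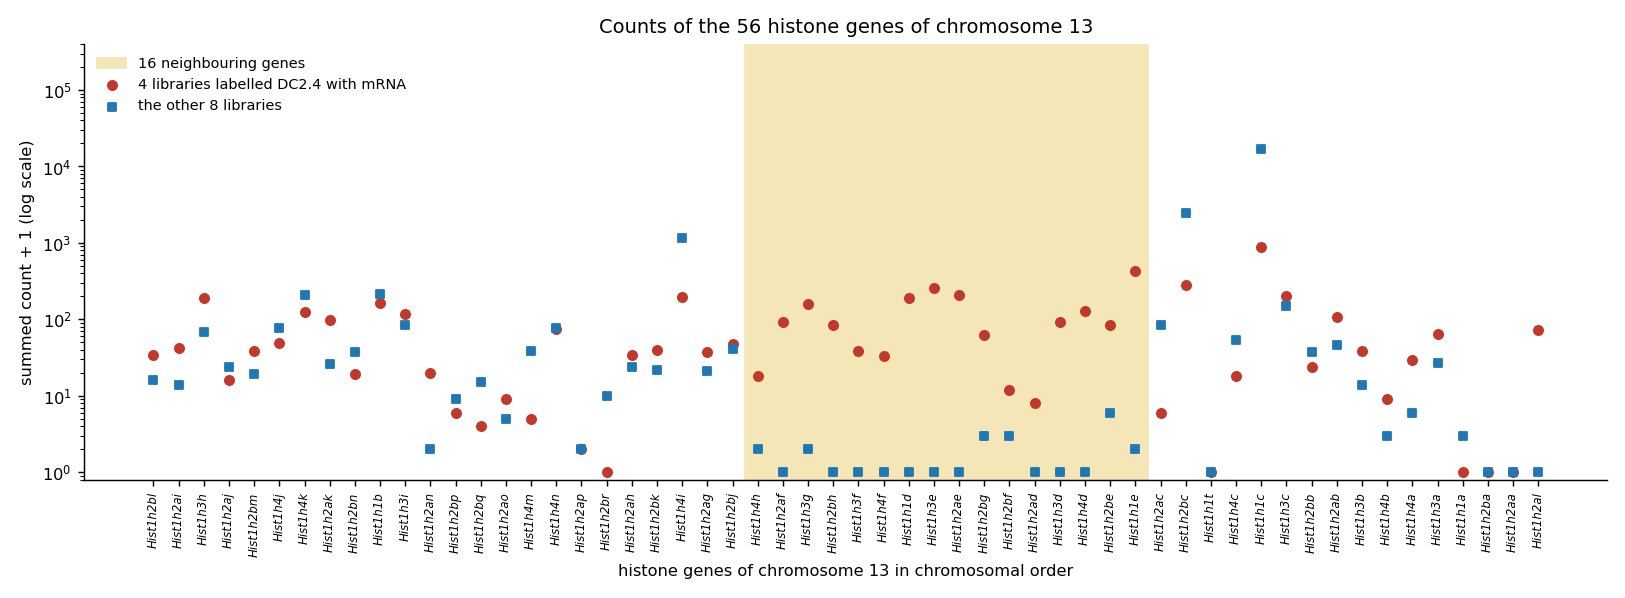
Summed count plus 1, on a log axis, of the 56 histone genes of chromosome 13 in chromosomal order, for the 4 libraries labelled DC2.4 with mRNA (circles) and the other 8 (squares). In the shaded block of 16 genes, chosen for low counts in those 8, the squares lie at 0 to 5 counts while the circles lie at 7 to 428.

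With 10 or more counts over the 2 libraries of a group, there were 47 histone genes in Mock and 33 in uniSTING libraries labelled DC2.4 with mRNA, 19 and 28 in libraries labelled 4T1, and 14 and 19 in vesicle libraries. The number at 0 in both libraries of a group moved less, at 14 and 16, 27 and 28, and 33 and 35. There were 15 genes that had 10 or more counts over all libraries and yet were too low for the test, and some are named here after their values were seen. Hist1h2an had 18 counts with Mock mRNA and 1 with uniSTING mRNA in libraries labelled DC2.4, Hist1h2bb had 21 and 2, and Hist1h2bf had 11 and 0. Hist1h2aj went the other way (2 and 13 counts), and Hist1h4m had 6 and 23 counts in libraries labelled 4T1. The 8 genes at 0 everywhere were Hist1h1t, Hist1h2ba and Hist1h2aa, which are known from the testis, and Hist2h2aa1, Hist2h2aa2, Hist2h3b, Hist2h3c1 and Hist2h2bb.

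Close copies limit what single genes show, since the deposited counts use uniquely mapped reads. Of the 70 genes, 64 share at least one stretch of 50 bases with another member, and in 32 more than 50% of such stretches are shared, 16 of them among the tested genes. Every 50-base stretch of Hist2h2aa2 and 89.2% of those of its twin Hist2h2aa1 occur elsewhere in the family, and neither gene had a count. Hist1h3h (93.9%), Hist1h4n (85.6%) and Hist1h3e (73.4%) are further examples among the genes described, while Hist2h4 (1.01%), Hist1h1d (2.21%), Hist1h1c (8.54%) and Hist2h2be (0%) are nearly free of shared stretches. How close copies moved the counts of single genes was not tested.

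The annotated transcript end was set beside the response in libraries labelled DC2.4 with mRNA. A poly(A) signal, AATAAA or ATTAAA, lies in the last 40 bases of a transcript for 17 of the 70 genes, of which 9 were tested. Of these 9, 2 were called lower, Hist2h4 and Hist1h2ae, with a median log2 fold change of -0.79. That count is near the share of all tested genes called lower, 20.9%. Of the 32 tested genes without such a signal, 27 were called lower, with a median of -2.09. The 32 include Hist1h2bl, Hist1h3h, Hist1h4k, Hist1h2ak, Hist1h2bn and Hist1h3i, whose models hold only coding sequence. Their 3′ ends could not be searched, and all of these but Hist1h4k were called lower. In Hist1h1c the annotated transcript runs 840 bases beyond the stem-loop shown above and in Hist1h4i 330 bases, both to a poly(A) signal. Hist2h4 runs 1257 bases beyond an identical stem-loop, also to a poly(A) signal, and fell. This split was looked for after the values were known, is given with no test, and the models do not show which form was sequenced.

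**Figure D4:**
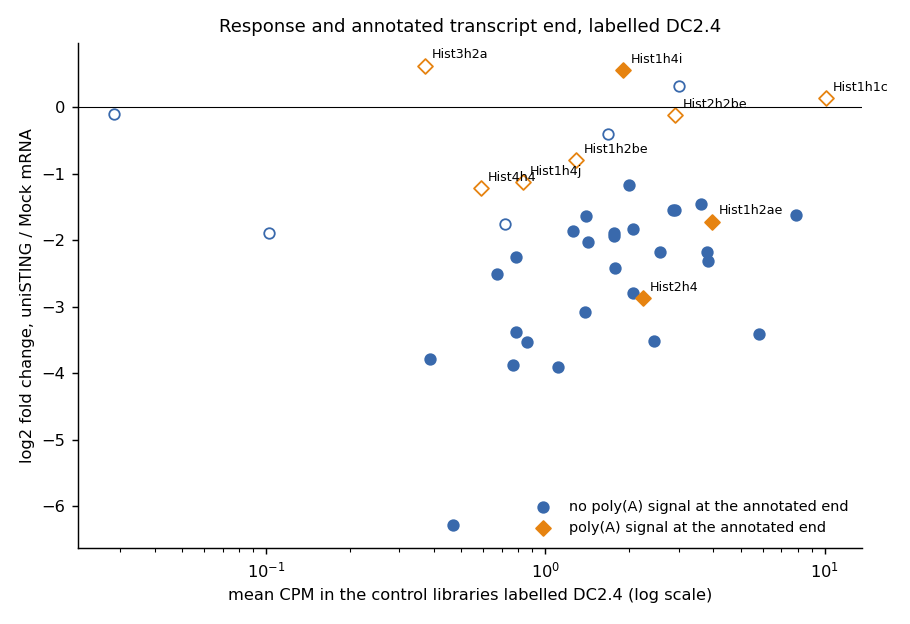
Log2 fold change of uniSTING over Mock mRNA against mean CPM of the Mock libraries (log axis) in libraries labelled DC2.4 with mRNA, for the 41 tested histone genes, by whether a poly(A) signal lies in the last 40 bases of an annotated transcript. Filled symbols passed the threshold, which 27 of 32 genes without a signal did by falling and 2 of 9 with one. Of all tested genes, 20.9% were called lower. Models that hold only coding sequence could not be searched and are shown as without a signal.

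Related genes were taken from lists of variant histones, histone mRNA processing factors, histone chaperones, S phase genes and other RNAs that lack a poly(A) tail. Variant histones have polyadenylated mRNAs and are made outside S phase as well. The counts below stand beside 20.8% of all tested genes called higher and 20.9% lower in libraries labelled DC2.4 with mRNA, 12.6% and 15.7% in libraries labelled 4T1, and 7.96% and 8.14% after vesicles. In libraries labelled DC2.4 with mRNA, 6 of 10 tested variant genes rose and 3 fell. H2afz, which codes for H2A.Z, rose by 0.28 on the log2 scale (edgeR adjusted p = 6.4e-08), H3f3a, one of the H3.3 genes, by 0.24 and Cenpa, the centromere variant, by 0.19. H2afx, whose gene makes both a stem-loop and a polyadenylated mRNA, fell by 0.27, at 136 and 149 CPM and then at 114 and 120 CPM. After uniSTING vesicles it rose (log2 fold change 0.34), as did H1f0, a linker variant (0.30), and 2 of the 10 fell. For libraries labelled 4T1, 3 rose, led by H2afz (0.24) and H3f3b (0.21), and H2afv fell by 0.31.

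The processing factors changed little. Slbp, the stem-loop binding protein, was at 128 and 123 CPM with Mock mRNA and 134 and 132 CPM with uniSTING mRNA in libraries labelled DC2.4, a log2 fold change of 0.10 (edgeR adjusted p = 0.033). In the same comparison 3 of 18 factors rose, beside 20.8% of all genes, and 6 fell, beside 20.9%, among them Upf1, a helicase of mRNA decay (-0.36), Sympk, a scaffold of the cleavage complex (-0.30), and, upward, Lsm1 of the decay complex (0.39). Among libraries labelled 4T1, 6 rose and 2 fell (12.6% and 15.7% of all genes), and after uniSTING vesicles 2 rose and 5 fell (7.96% and 8.14%). Npat, the coactivator of histone gene transcription, passed in none of the 3 (adjusted p = 0.055, 0.089 and 0.61). The list medians were -0.05, 0.04 and -0.06.

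S phase genes split in libraries labelled DC2.4 with mRNA: of 28, 10 rose and 8 fell, where 20.8% and 20.9% of all genes did, with a median log2 fold change of 0.05. Those that fell included the origin licensing genes Mcm6 (-0.25), Cdt1 (-0.26) and Mcm3 (-0.19), and Pcna, the sliding clamp, rose by 0.12. Of the 28, 21 rose in libraries labelled 4T1, where 12.6% of all genes did, and 7 did not pass, with a median of 0.19. Pcna rose by 0.30, Mcm5 by 0.30 and Rrm1, a ribonucleotide reductase subunit, by 0.22. After uniSTING vesicles 2 rose and 5 fell, where 7.96% and 8.14% of all genes did, with a median of -0.04. Histone chaperones gave 6 of 17 higher and 4 lower in libraries labelled DC2.4 with mRNA, including Hat1 (0.30), which acetylates new H4, and Supt16, a FACT subunit (-0.39), then 8 of 17 higher in libraries labelled 4T1, and 2 higher and 1 lower after uniSTING vesicles. The 4 lower in the first and the 2 and 1 after vesicles are near the shares of all genes just given.

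**Figure D5:**
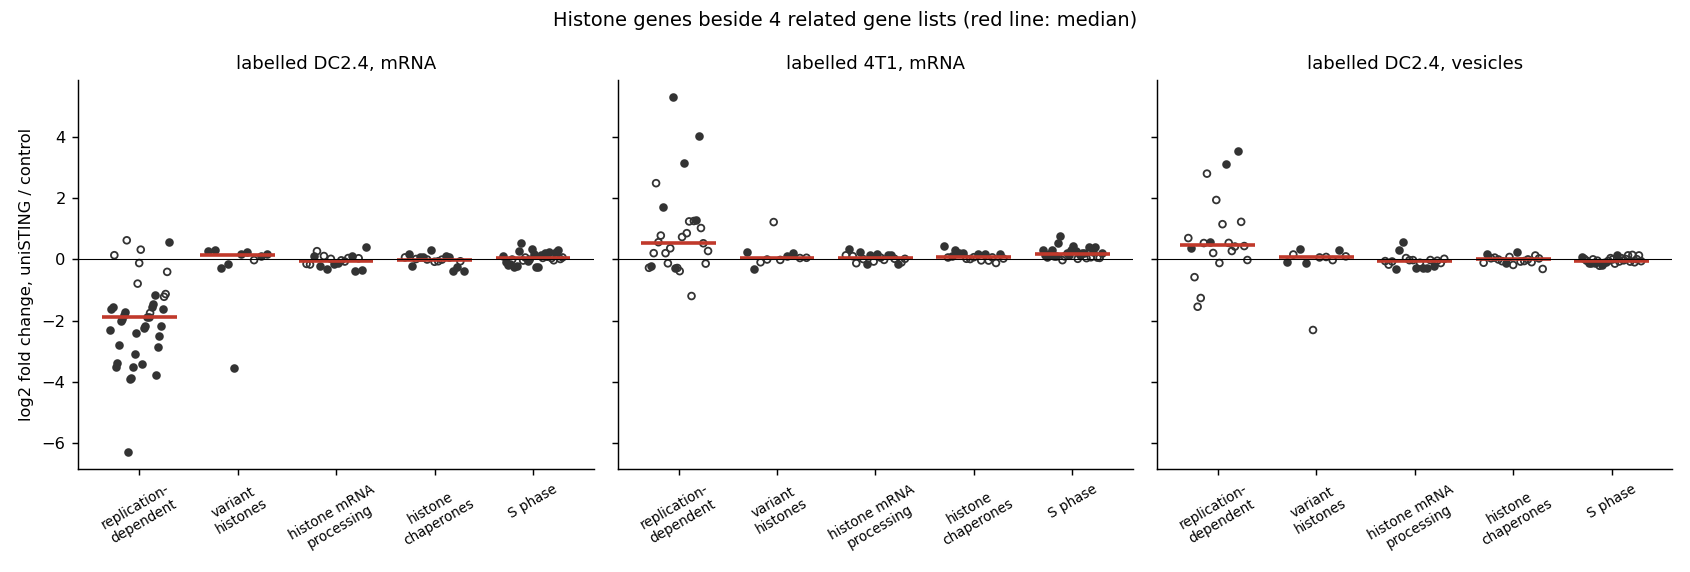
Log2 fold change of uniSTING over control for the tested replication-dependent histone genes with 10 or more counts in the 4 libraries compared, and for 4 related lists, in the 3 comparisons; filled points passed the threshold and the red line is the median. The histone median is -1.89 in libraries labelled DC2.4 with mRNA, 0.54 in libraries labelled 4T1 (26 genes) and 0.49 in vesicle libraries (20 genes), or 0.20 and 0 over all 41 tested, while the medians of the other lists lie between -0.06 and 0.19.

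Of 17 other RNAs that lack a poly(A) tail, 12 were in the files and 1 had enough counts for the test. This was Scarna2, a small Cajal body RNA, with 6 and 20 counts with Mock mRNA and 0 in both uniSTING libraries labelled DC2.4 (edgeR adjusted p = 0.00055). It had 5 and 13 counts and then 17 and 20 in libraries labelled 4T1, and 17 and 12 and then 9 and 10 after vesicles, neither of which passed. The 12 RNAs together summed to at most 1.64 CPM in a library. Rmrp, Rpph1, Rny1, Rny3, Rnu11, Scarna9 and Scarna10 had no count in any library.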

How the data were processed

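The authors deposited raw counts per gene for 12 libraries, made per the file headers with featureCounts of Subread 2.0.1 on paired, uniquely mapped reads over Ensembl exons, without a strand option; HISAT2 and GRCm39 are named in the submitters' processing notes. Poly(A) selection and strandedness are not given in the sources used here. CPM is the count per 1000000 of a library's deposited total (14059040 to 25975658). Genes were tested on these counts with edgeR 4.0.16 (filterByExpr, TMM, quasi-likelihood, 6 groups in 1 fit, R 4.3.3), with Benjamini-Hochberg adjustment over 14863 genes. The code was tested on simulated data. DESeq2 1.42.0, limma-voom 3.58.1, other scalings and filters, the preparation block and each library left out were alternatives. Named genes were the 8 smallest p-values in each treatment comparison and the most abundant gene of each class; others were chosen after their values were seen. The members and lists were chosen with earlier results of these data known. Folds of genes with 1 to 3 counts carry exact 95% intervals, and a group at 0 was set to 3 counts; both cover counting error only. Stem-loops come from GENCODE M21 transcripts and promoters from RefSeq on GRCm38.p6, a build other than that of the counts.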

Additional observations from a re-analysis of the deposited data

Results flagged for a closer look

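The responses to uniSTING differed between comparisons for some of the 41 tested histone genes, by the edgeR test of the difference itself. Between libraries labelled DC2.4 with mRNA and libraries labelled 4T1 they differed for 16 genes (15 more negative and 1 more positive in the former, where 15.1% and 16% of all tested genes were). Between libraries labelled DC2.4 with mRNA and vesicle libraries they differed for 11 genes, all more negative in the former, where 15.3% of all genes were more negative and 15.3% more positive. Between libraries labelled 4T1 and vesicle libraries they differed for 9 genes (6 more positive and 3 more negative in the former, where 13% and 15.0% of all genes were). The 11 and the 9, over both directions, are smaller shares of the 41 than the shares of all genes called in those tests. Of the 41, 10 had no count in libraries labelled 4T1 and 12 had none in vesicle libraries, so no response of theirs could be measured there.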

How the results depend on the processing

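Depth limits most single genes, since the histone genes held 768 to 5451 counts per library. Of 337 values of counts, medians and ratios under an alternative, 281 stayed within the limits set, 55 moved and 1 turned; of 863 values of single genes, 820 were the same, 33 lost their call, 2 gained one and 8 changed sign, all without a call. The cause of a change was not tested, except that fewer genes enter under a stricter filter (11 with 1 CPM in 4 libraries) or without the block of neighbours.

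In libraries labelled DC2.4 with mRNA, the 29 lower genes were 12 by DESeq2, 5 with the 1 CPM filter, 18 without the block of neighbours and 17 to 31 on leaving out 1 library. The 1 higher gene was 0 by DESeq2, by limma-voom, without a filter, with the 4 libraries alone and at 2-fold, and 0 to 1 on leaving out 1 library. In libraries labelled 4T1, the 5 higher genes were 1 by DESeq2, 1 with the 1 CPM filter, 2 with the 4 libraries alone and 2 to 5 on leaving out 1 library, and the 2 lower genes were 0 at 2-fold and 1 to 2 on leaving out 1. In vesicle libraries, the 4 higher genes were 2 by DESeq2, with the 1 CPM filter and at 2-fold, and 3 to 5 on leaving out 1 library.

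For libraries labelled DC2.4 with mRNA against those labelled 4T1, the 15 more negative responses were 6 by DESeq2, 2 with the 1 CPM filter and 9 to 16 on leaving out 1 library, and the 1 more positive was 0 by limma-voom, 2 without a filter and 0 to 2. Against vesicle libraries, the 11 were 5, 3 and 7 to 12. For libraries labelled 4T1 against vesicles, the 6 were 0 by DESeq2, 1 with the 1 CPM filter and 2 to 6, and the 3 more negative were 5 without a filter. Between controls, the 30 lower genes in libraries labelled 4T1 were 5 with the 1 CPM filter. For Mock vesicles, the 1 higher gene was 2 with upper-quartile factors, 0 with the 1 CPM filter and 0 to 1, and the 5 lower were 3 by DESeq2 and with the 1 CPM filter.

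The median in libraries labelled DC2.4 with mRNA was -2.11 with the trend over gene length removed. The ratio of sums in libraries labelled 4T1 was 0.902 with TMM-scaled totals. Without the 4 most abundant genes, an alternative chosen after seeing the data like that of the block of neighbours, the 3 ratios were 0.276, 1.56 and 1.38. Signs changed for Hist2h2be in libraries labelled DC2.4 with mRNA (-0.22 to 0.0012 on leaving out 1 library, above 0 without uniSTING preparation 2). In libraries labelled 4T1 they changed for Hist2h2ac (-0.24 to 1.03, at -0.24 without Mock preparation 1 and -0.14 without uniSTING preparation 2) and Hist1h2ak (-0.061 without Mock preparation 2, up to 1.35). In vesicle libraries they changed for Hist1h3c (-0.74 to 0.24, above 0 without Mock preparation 1 or uniSTING preparation 1) and Hist1h4i (-0.13 to 0.12, above 0 without Mock preparation 2 or uniSTING preparation 1).

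The preparation numbers are 2 and only a shared number. Preparation differences correlated across 9487 genes at r = 0.571, 0.635 and 0.543 in the 3 comparisons. With the replicate block, calls in the comparisons of uniSTING with control were 1 higher and 30 lower, 5 and 2, and 4 and 0, and no count of calls moved by over 1.5 times.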
